A study of Mus musculus with 6 samples.

Results

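The genes described here belong to the families that load, dock and fuse vesicles: the SNARE proteins (syntaxins, SNAPs and VAMPs), the syntaxin-binding proteins, the synaptotagmins, the complexins, the RIMs, the Rab3 GTPases, the synapsins and the SV2 glycoproteins. They were selected by gene name alone, and 62 of the 19613 genes in the table matched. By the usual knowledge of where each gene is used, 31 of them were classed as neuronal, 16 as ubiquitous and 15 as neither, the last class holding genes best known from exocrine, epithelial, immune, muscle or retinal cells or with no settled pattern. Syt1, Cplx3, Stxbp6, Vamp7 and Stxbp3 had no row under these names and were not analysed here.

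The values came from 6 mouse exon arrays of embryoid bodies, which are aggregates grown from embryonic stem cells. The line was HBG3 by the series title (HGB3 in the methods), in which the promoter of the motor neuron gene Hb9 (Mnx1) drives eGFP, and it was differentiated towards spinal motor neurons with retinoic acid and a hedgehog agonist, so that motor neurons lay among other cells. The embryoid bodies had all received blood fluid, called plasma in the labels and serum in the series title and the methods, from mice of the strain B6CBA-Tg(HDexon1)62Gpb/3J, which carry exon 1 of the human huntingtin gene and model Huntington's disease. The donors were male carriers of 10 weeks of age, before the onset of symptoms, and the methods describe an exposure to 5% serum for 24 h, given 6 days into differentiation, for the ALS sera assayed in the same way. The arrays carry the replicate labels 2, 4, 5, 6, 7 and 8, and the study speaks of serum samples in the plural, but neither says whether the embryoid bodies came from separate cultures, so the SDs and p-values measure only the spread between these arrays. No control arrays were analysed here. The values are therefore levels under this serum and not responses to it.

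At a nerve terminal, a synaptic vesicle fuses when VAMP2 on the vesicle zippers with a syntaxin and SNAP-25 on the plasma membrane, helped by a syntaxin-binding protein. Synaptotagmins sense calcium, complexins hold the assembled complex ready, RIMs and Rab3 position vesicles at the active zone, and synapsins tether the reserve pool. Every cell runs the same kind of reaction in its endosomes, Golgi and plasma membrane with other members of these families. Spinal motor neurons need the neuronal set to release acetylcholine at muscle.

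Promoters were read for the 47 members that have an entry in the RefSeq promoter table (GRCm38.p6), each from 250 bases before to 50 bases after a start site. The 15 without an entry include Snap25, Vamp2, Vamp3, Syn3, Syt4, Syt5, Syt7, Syt12, Syt13, Syt17, Rims2, Rims4 and Cplx4. The full site of REST, the repressor that keeps neuronal genes off in other cells, was searched as a 15-letter motif and was found in 0 of the 20 neuronal, 0 of the 15 ubiquitous and 0 of the 12 remaining members, against 0.052% of the 13453 array genes with an entry. The left part of this motif, CAGCACC, was found on either strand in 3 of 20 neuronal members (Syn1, Sv2c and Syt10), in 0 of 15 ubiquitous members and in 4 of the 12 others (Stx11, Stxbp2, Syt15 and Syt8), against 8.64% of array genes. The cAMP response element TGACGTCA was found in the neuronal member Syn1 alone, against 2.79% of array genes. The GC box GGGCGG was found in 17 of 20 neuronal, 12 of 15 ubiquitous and 8 of 12 other members, against 53.8%, and TATAAA in 2, 2 and 0 members, against 13.7%. A palindrome of 10 letters bound by NRF1, spelled out in capitals in the Stx12 promoter below, was found in 0 neuronal members, in the ubiquitous members Snap23 and Stx12 and in Stxbp5, against 1.60%. CAGCACC is part of the full REST site, and the other motifs do not lie within each other. For each gene the window with the most CpGs was taken. The median over genes was 19 CpGs in neuronal members, 23 in ubiquitous members and 25.5 in the others, against 17 over the array genes. The 20 neuronal members had 28 windows and the 13453 array genes had 16557, and the medians were not matched for this. The motifs were chosen with the levels known, and a match is a run of letters and not a shown binding site.

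The 250 bases before the start site are printed for 3 members that hold such letters: the neuronal Syn1 and Sv2c, and the ubiquitous Stx12 as the contrast, all on the minus strand and written 5′ to 3′. In Syn1 (chrX:20920919-20921168) the capitals mark CAGCACC at 230 and 176 bases and TGACGTCA at 159 bases before the start site. In Sv2c (chr13:96132578-96132827) they mark CAGCACC at 101 bases, and in Stx12 (chr4:132884459-132884708) the NRF1 palindrome at 66 bases before the start site. In Syn1 the CAGCACC at 230 bases is followed by gcggtcag, which matches the NNGGACAG of the full REST motif but for a t in place of A. The exact search did not count this stretch. The Syn1 window also opens with cgcatgcgc, the NRF1 palindrome without its first letter. The base before it lies outside the window and was not read, so Syn1 was not counted for that motif.
Syn1: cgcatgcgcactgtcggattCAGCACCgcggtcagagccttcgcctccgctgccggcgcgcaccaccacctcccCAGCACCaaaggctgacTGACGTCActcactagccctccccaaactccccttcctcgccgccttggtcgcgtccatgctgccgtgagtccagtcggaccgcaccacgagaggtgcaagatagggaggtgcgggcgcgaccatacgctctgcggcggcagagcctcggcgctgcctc
Sv2c: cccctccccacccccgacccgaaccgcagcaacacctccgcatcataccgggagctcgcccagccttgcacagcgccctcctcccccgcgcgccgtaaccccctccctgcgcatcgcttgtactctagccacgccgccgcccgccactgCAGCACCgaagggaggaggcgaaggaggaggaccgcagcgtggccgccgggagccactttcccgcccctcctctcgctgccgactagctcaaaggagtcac
Stx12: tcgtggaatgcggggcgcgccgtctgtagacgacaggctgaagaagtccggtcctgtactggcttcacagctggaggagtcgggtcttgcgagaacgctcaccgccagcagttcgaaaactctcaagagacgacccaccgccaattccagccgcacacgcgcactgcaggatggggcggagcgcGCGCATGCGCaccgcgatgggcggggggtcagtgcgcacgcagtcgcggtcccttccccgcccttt
Syn1 and Sv2c were both well above background in the cultures and Syt10, which also holds CAGCACC, was below it, as given below with their levels.

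The cultures expressed most of both sets. Of the 31 neuronal members, 28 (90.3%) lay above background, 1 lay below it and 2 could not be separated from it. Of the 16 ubiquitous members, 15 (93.8%) lay above and 1 below, and of the 15 others, 10 (66.7%) lay above and 5 below. Over all 19613 genes, 63.1% lay above and 32.5% below. Background was set by the 1032 olfactory receptor genes, which are silent in most tissues: the 95th percentile of their mean log2 intensities was 7.47, and a gene was called above or below it by limma with a Benjamini-Hochberg adjusted p under 0.05 over all genes. By the mean alone, with no test, the counts of members above were the same, 28, 15 and 10, against 65.2% of all genes. With the 99th percentile of the olfactory receptor genes, 8.33, in place of the 95th, the counts were 21, 14 and 6, against 46.7% of all genes.

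The median mean level was 9.08 for neuronal members, 9.48 for ubiquitous members and 8.12 for the others, on the log2 intensity scale, against 8.26 over all genes. Means spanned 6.62 to 11.70 in the neuronal class, 7.35 to 11.05 in the ubiquitous class and 5.45 to 10.41 in the rest. The classes overlapped over most of this range. Above the 90th percentile of all genes stood 5 neuronal members, 3 ubiquitous members and 0 of the others. Probes differ in how strongly they bind their targets, so these orders rank intensities and not amounts of transcript, and no test was made between classes because genes are not replicates. In whole cultures, fewer cells of a type and less RNA per cell cannot be told apart.

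**Figure D1:**
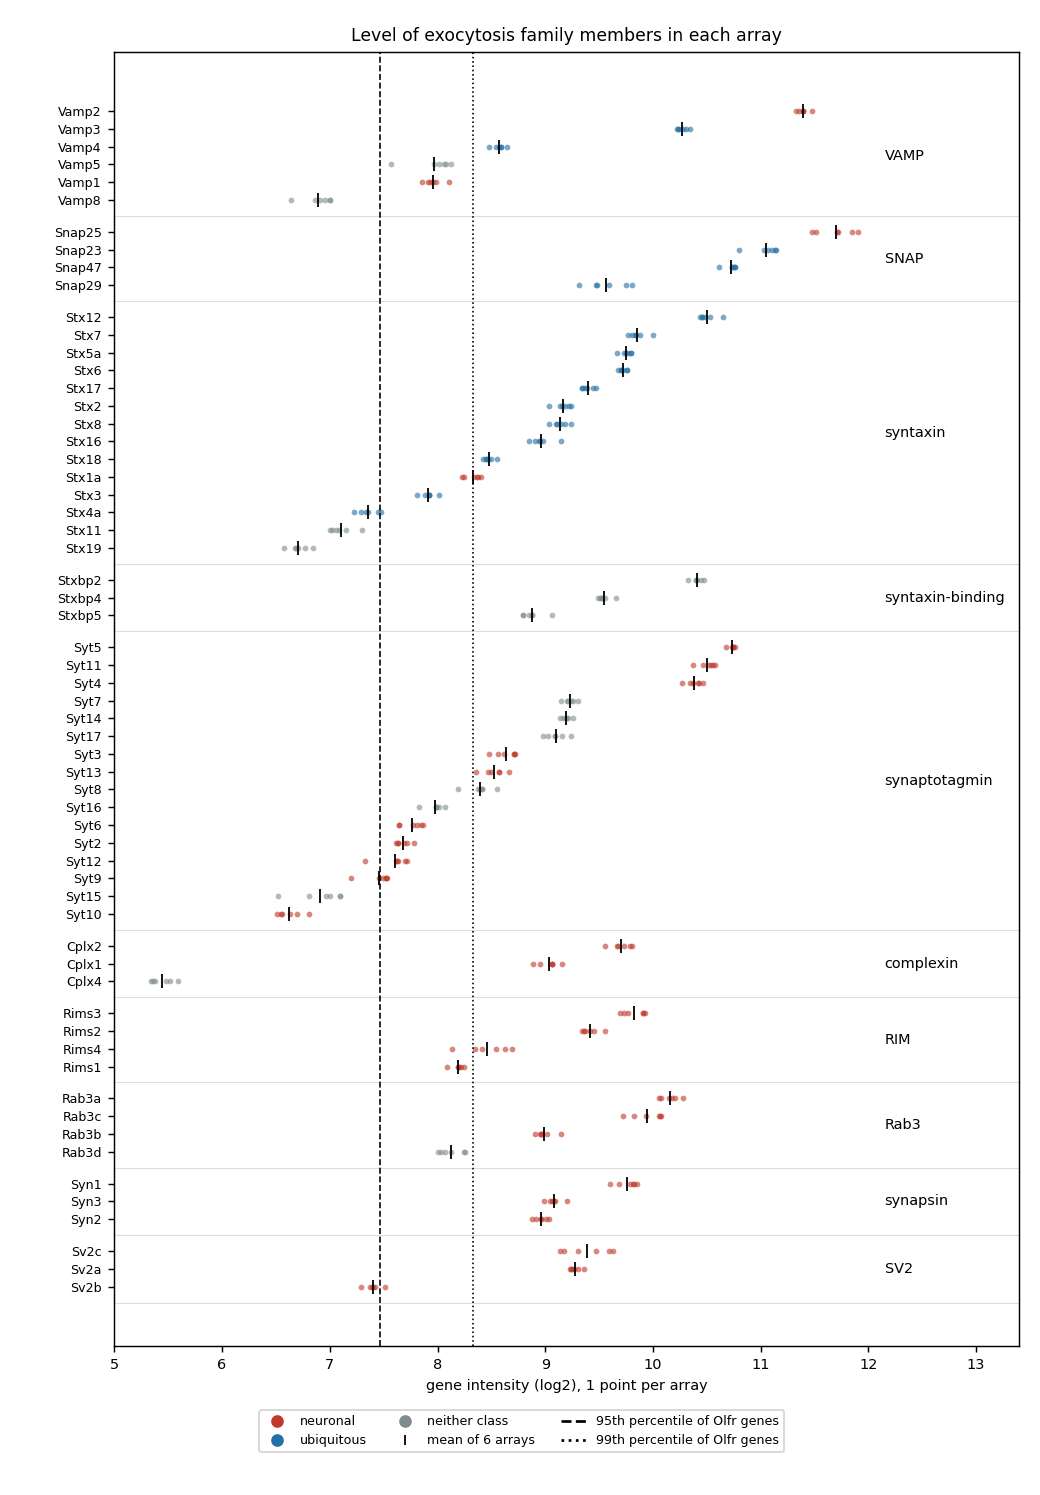
Log2 intensity of the members reported singly (x axis) in each of the 6 arrays, 1 point per array, with a tick at the mean, by family and coloured by class; the dashed and dotted lines stand at the 95th (7.47) and 99th (8.33) percentiles of the olfactory receptor genes. Snap25 and Vamp2 stand farthest to the right and Cplx4 farthest to the left.

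Of the core fusion proteins of the synapse, Snap25, Vamp2 and Stx1a were above background. Snap25, which gives the fusion complex a pair of its helices, read 11.72, 11.52, 11.47, 11.71, 11.91 and 11.85 in replicates 2, 4, 5, 6, 7 and 8, with a mean of 11.70 ± 0.17 (SD, n = 6). It was the brightest member, above 97.9% of all genes and 4.23 above the background level on the log2 scale (limma adjusted p = 2e-11), and its lowest arrays were replicates 4 and 5. Vamp2, the synaptic vesicle SNARE, read 11.40, 11.35, 11.33, 11.39, 11.40 and 11.48, with a mean of 11.39 ± 0.051 (SD, n = 6). The arrays lay close together, with replicate 8 the highest.

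Stx1a, a plasma membrane partner of Vamp2, read 8.22, 8.38, 8.37, 8.40, 8.34 and 8.24, with a mean of 8.33 ± 0.074 (SD, n = 6). Replicates 2 and 8 were its lowest arrays. Stx1a stood 0.86 above the level and was level with the stricter 99th percentile of the olfactory receptor genes, 8.33. Vamp1, the other synaptic VAMP and one of the spinal cord, had a mean of 7.96.

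Among the syntaxin-binding proteins of neither class were Stxbp2, the Munc18 of epithelial and immune cells, at 10.41, Stxbp4, a partner of syntaxin 4, at 9.54, and Stxbp5, the fusion inhibitor tomosyn, at 8.88. Stxbp5 read 8.85, 8.88, 8.79, 8.88, 8.79 and 9.07, with replicate 8 apart above the others. All 3 were above background, against 63.1% of all genes. The ubiquitous Munc18-3 is listed as Stxbp3a, which the name rule does not take, and had a mean of 8.36.

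The ubiquitous counterparts were also bright. Snap23, which takes the place of Snap25 outside neurons, read 11.03, 11.07, 10.79, 11.11, 11.13 and 11.15, with a mean of 11.05 ± 0.13 (SD, n = 6). It was the brightest ubiquitous member, and replicate 5 stood alone below the other arrays. Snap47 read 10.76, 10.73, 10.76, 10.61, 10.73 and 10.75 with a mean of 10.72, replicate 6 being low. Snap29, which serves endosome and autophagosome fusion, read 9.48, 9.31, 9.75, 9.59, 9.81 and 9.47, with a mean of 9.57 ± 0.19 (SD, n = 6). Replicates 5 and 7 were high and replicate 4 low for Snap29, so replicate 5 was low for Snap25 and Snap23 and high for Snap29.

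Vamp3 (cellubrevin), the close relative of Vamp2 on recycling endosomes of all cells, read 10.31, 10.22, 10.23, 10.25, 10.28 and 10.34, with a mean of 10.27 ± 0.047 (SD, n = 6). Its 6 arrays lay within a narrow band. Vamp4 of the trans-Golgi network had a mean of 8.57. Vamp5, best known from muscle, read 8.06, 7.96, 8.01, 8.08, 8.12 and 7.57, with a mean of 7.97 ± 0.20 (SD, n = 6). Replicate 8 was far below the other 5 arrays for Vamp5. Vamp8, the VAMP of secretory granules and late endosomes in blood and exocrine cells, lay below background at 6.89.

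Of the 11 ubiquitous syntaxins, 10 were above background, against 63.1% of all genes, and most serve organelles and not the cell surface. Endosomal Stx12, Stx7 and Stx8 had means of 10.50, 9.86 and 9.14. Stx5a of the early Golgi had a mean of 9.75, Stx6 and Stx16 of the trans-Golgi network 9.72 and 8.96, Stx17 of the autophagosome 9.39 and Stx18 of the endoplasmic reticulum 8.47. Stx6 was the steadiest of the class at 9.76, 9.72, 9.71, 9.76, 9.70 and 9.68, an SD of 0.033. Of the plasma membrane syntaxins, Stx2 had a mean of 9.16 and Stx3 one of 7.91. Stx4a, the surface syntaxin of most cells, read 7.29, 7.47, 7.44, 7.23, 7.34 and 7.36, with a mean of 7.35 ± 0.093 (SD, n = 6). Stx4a was the single ubiquitous member below background (limma adjusted p = 0.0164), but the call was lost without replicate 2, 6 or 7. Stx11 of immune cells and Stx19 of epithelia, classed as neither, were below background at 7.10 and 6.71.

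The synaptotagmins ranged from 6.62 to 10.73, and 8 of the 10 neuronal members were above background, against 63.1% of all genes. Syt5 was the brightest synaptotagmin and had the smallest SD of all members, at 10.76, 10.75, 10.74, 10.67, 10.74 and 10.74, with a mean of 10.73 ± 0.030 (SD, n = 6). Replicate 6 stood off, below the other 5 arrays. The names Syt5 and Syt9 have been exchanged in parts of the literature, and the names of the table were kept. Syt11 and Syt4, a pair that does not work as calcium sensors in the usual way, followed at 10.50 and 10.38. Syt3 and Syt13 had means of 8.63 and 8.52.

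A further 3 neuronal synaptotagmins lay just above the level. Syt6 read 7.77, 7.64, 7.84, 7.87, 7.81 and 7.64 and stood 0.29 above it (limma adjusted p = 9.58e-05). Syt2, a fast calcium sensor of spinal cord and brainstem synapses, read 7.69, 7.61, 7.78, 7.63, 7.72 and 7.63 and stood 0.21 above it (limma adjusted p = 0.000172). Syt12 read 7.63, 7.61, 7.71, 7.63, 7.69 and 7.32 and stood 0.13 above it (limma adjusted p = 0.0361). Replicate 8 alone of the 6 arrays was under the level for Syt12, and the call was lost without replicate 2, 4 or 5. Just under the level, Syt9 read 7.50, 7.53, 7.52, 7.46, 7.52 and 7.19 and could not be separated from it (limma adjusted p = 0.744). Here too replicate 8 was the array that stood apart. Syt10, known from the olfactory bulb, was below background at 6.62.

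Of the 6 synaptotagmins of neither class, 5 were above background, against 63.1% of all genes. Syt7, the slow calcium sensor found in many secretory cells, had a mean of 9.23, Syt14 one of 9.19, Syt17 one of 9.10, Syt8 one of 8.39 and Syt16 one of 7.98. Syt14 was among the steadiest members at 9.19, 9.25, 9.19, 9.16, 9.14 and 9.21, an SD of 0.040. Syt16 read 8.07, 7.83, 7.99, 7.99, 8.01 and 7.99, with replicate 4 apart below the rest. Syt15 was below background at 6.91.

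Both brain complexins were present. Cplx2 read 9.67, 9.67, 9.73, 9.80, 9.79 and 9.56, with a mean of 9.70 ± 0.091 (SD, n = 6). Cplx1 read 9.06, 8.89, 9.06, 8.95, 9.06 and 9.15, with a mean of 9.03 ± 0.094 (SD, n = 6). The 2 genes went opposite ways in replicate 8, which was the lowest array for Cplx2 and the highest for Cplx1. Cplx4, the complexin of retinal ribbon synapses, was the dimmest of all members, at a mean of 5.45, a difference of -2.02 from the background level on the log2 scale (limma adjusted p = 1.43e-10). Retinal markers were largely below background too, with 1 of 6 above it, against 63.1% of all genes.

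All 4 RIM genes, the scaffolds of the active zone, were above background, against 63.1% of all genes. Rims3 and Rims2 had means of 9.82 and 9.42. Rims4 read 8.35, 8.41, 8.54, 8.69, 8.62 and 8.14, with a mean of 8.46 ± 0.20 (SD, n = 6). Its highest and lowest arrays, replicates 6 and 8, differed 1.47-fold, the widest span of any member called above background. Rims1 read 8.19, 8.08, 8.19, 8.22, 8.25 and 8.20, with a mean of 8.19 ± 0.056 (SD, n = 6). Replicate 4 was the low array for Rims1.

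The Rab3 GTPases, which ride on synaptic vesicles and bind RIMs, were all above background, against 63.1% of all genes. Rab3a read 10.21, 10.08, 10.06, 10.17, 10.15 and 10.28, with a mean of 10.16 ± 0.084 (SD, n = 6). Rab3c and Rab3b had means of 9.95 and 8.99. Rab3d, best known from exocrine granules, read 8.25, 8.03, 8.13, 8.01, 8.07 and 8.26, with a mean of 8.12 ± 0.11 (SD, n = 6). Every array of the 3 neuronal genes lay above every array of Rab3d. Of 8 markers of neuroendocrine and exocrine cells, 4 were above background and 4 below it, against 63.1% of all genes. Among those above were the granule proteins Chga at 10.21 and Chgb at 10.10, while the hormone genes Ins2 and Gcg were below background. Of the exocrine enzymes, Prss1 was above background at 7.97 and Amy2a5 and Cpa1 were below it at 5.85 and 6.43.

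The synapsins and 2 of the 3 SV2 genes were above background, against 63.1% of all genes. Syn1 read 9.79, 9.60, 9.81, 9.68, 9.83 and 9.85, with a mean of 9.76 ± 0.097 (SD, n = 6), and Syn3 and Syn2 had means of 9.08 and 8.96. Sv2a, the vesicle glycoprotein bound by the drug levetiracetam, read 9.36, 9.27, 9.25, 9.23, 9.30 and 9.24, with a mean of 9.27 ± 0.049 (SD, n = 6). Sv2a was among the steadier neuronal members and its relative Sv2c the least steady. Sv2c read 9.47, 9.14, 9.31, 9.17, 9.59 and 9.63, with a mean of 9.39 ± 0.21 (SD, n = 6). Replicates 4, 5 and 6 were its lower arrays and 2, 7 and 8 its higher ones, with no clear gap between them. Sv2b read 7.37, 7.40, 7.42, 7.29, 7.39 and 7.51, with a mean of 7.40, and could not be separated from the level (limma adjusted p = 0.0566).

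**Figure D2:**
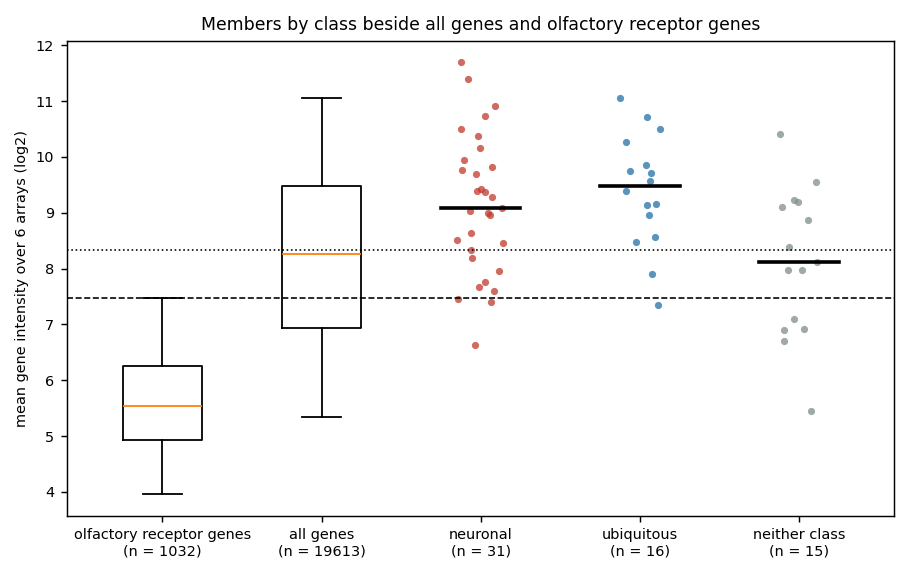
Mean log2 intensity over 6 arrays (y axis) of each member by class, with a bar at the class median, beside box plots of the olfactory receptor genes and of all genes (box: quartiles, line: median, whiskers: 5th and 95th percentiles); the dashed and dotted lines are the 7.47 and 8.33 levels. The medians of the neuronal (9.08) and ubiquitous (9.48) members lie above that of all genes (8.26), and that of the others (8.12) does not.

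How far a call above background can be read was examined with genes best known from other tissues. Of 16 muscle, retina and blood markers, 7 were called above background, against 63.1% of all genes. By list these were 4 of 5 muscle, 1 of 6 retina and 2 of 5 blood markers. The median level of all 16 was 7.31, and the highest was the muscle actin Acta1 at 8.83. Above that mark stood 19 neuronal members, 12 ubiquitous members and 6 of the others, against 38.1% of all genes. At or under it were 9 neuronal, 3 ubiquitous and 4 other members that had been called above the level. Those neuronal members were Syt3, Syt13, Rims4, Stx1a, Rims1, Vamp1, Syt6, Syt2 and Syt12.

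The labelled cell type was checked with markers. All 9 general neuronal markers, among them Tubb3 at 12.81 and Stmn2 at 12.81, and all 6 motor neuron markers, from Mnx1 at 8.48 to Isl1 at 10.33, were above background. Mnx1 and Lhx3, at 8.48 and 8.64, lay under the Acta1 mark of 8.83, and the other motor neuron markers lay over it. The pluripotency marker Nanog, at 8.94, also lay over it. Neural progenitor markers were above background for 6 of 7 genes, glial markers for 4 of 7 and markers of pluripotent cells for 2 of 6, against the 63.1% of all genes. Median levels were 11.98 for general neuronal, 9.69 for neural progenitor, 9.20 for motor neuron, 7.81 for glial and 7.42 for pluripotency markers. The median intensity of an array ranged from 296 to 311.

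Genes of the same pathway outside the name rule were counted in the same way, against the 63.1% of all genes above background. Of 22 further genes used mainly by neurons for vesicle release or recycling, 17 were above background, 3 below and 2 not separated from it. The highest were Snap91, a clathrin adaptor of synaptic vesicles, at 10.75, the active zone scaffold Pclo at 10.20 and Cadps, which primes dense core vesicles, at 9.88. The lowest were Unc13c at 6.53, Cadps2 at 6.63 and the vesicle protein Synpr at 7.36. The vesicle protein Syp stood at 9.75 and the priming factor Unc13a at 9.70. Of 16 genes of the pathway that are not used mainly by neurons, 15 were above background. The highest were the clathrin adaptor Picalm at 12.00, the chaperone Dnajc5 at 10.80 and Napa, which helps to take SNARE complexes apart, at 10.73. The lowest were Rab27a, which was below background at 7.29, Unc13d at 7.65 and Napg at 8.72.

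The members varied little between arrays. Among the 53 members above background, the highest array exceeded the lowest by a median of 1.16-fold, and 40 members stayed under 1.2-fold. The median SD was 0.084 for neuronal members, 0.066 for ubiquitous members and 0.085 for the others, against 0.076 over all genes above background. The standard error of the neuronal and ubiquitous medians over left-out arrays was 0.015 and 0.019. Both medians come from the same arrays, so these are not errors of their difference, which was not tested. The neuronal median was the larger whichever array was left out, for example 0.073 against 0.049 without replicate 8. SDs fall as levels rise, and against the median of all genes in the same bin of level (4 bins) 18 of 28 neuronal, 7 of 15 ubiquitous and 4 of 10 other members had the larger SD. The largest SDs above background were those of Sv2c, Rims4, Vamp5, Snap29 and Snap25, and the smallest those of Syt5, Stx6 and Syt14.

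**Figure D3:**
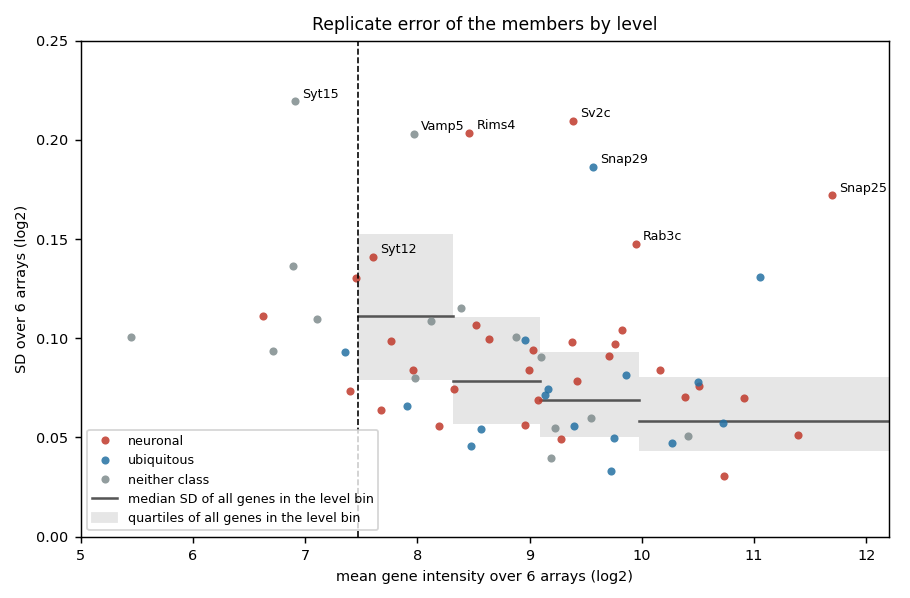
SD of log2 intensity over 6 arrays (y axis) against the mean (x axis) for the 62 members, coloured by class, with the median (line) and quartiles (grey band) of all genes above background in 4 bins of level; the dashed line is the background level. Snap25 (SD 0.17 at a mean of 11.70), Sv2c, Snap29 and Rims4 stand above the band for their level.

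Several neuronal members were low in the same arrays. Of the 28 neuronal members above background, 8 had their lowest value in replicate 4, a share of 28.6%, against 10.8% of all genes above the level. The mean deviation of these 28 from their own means was lowest in replicate 4, at -0.053, and highest in replicate 7, at 0.052. The general neuronal markers were also lowest in replicate 4 but highest in replicate 8, with list means of 12.07, 11.99, 12.04, 12.07, 12.11 and 12.14 in replicates 2, 4, 5, 6, 7 and 8, and their part in the result was not tested. The pattern was noticed in these data and is given as a description.

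In the ubiquitous class, 3 of 15 members above background were lowest in replicate 4, and the mean deviation was lowest in replicate 5, at -0.034. A wider pattern was seen in both classes. With the lowest array being 4 or 5 and the highest 2, 7 or 8, a split chosen after the values were seen, 12 of 28 neuronal and 9 of 15 ubiquitous members qualified, against 20.4% of genes above the level. That share was not matched for level. Over all pairs of members of a class, the median Pearson's r across the 6 arrays was 0.081 for 378 neuronal pairs and 0.11 for 105 ubiquitous pairs, against -0.0026 for pairs of all genes above the level. The standard errors over left-out arrays were 0.17 and 0.16, so neither median stood apart from 0. Members share the arrays and their scaling, and 6 arrays place little weight on any single r.

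**Figure D4:**
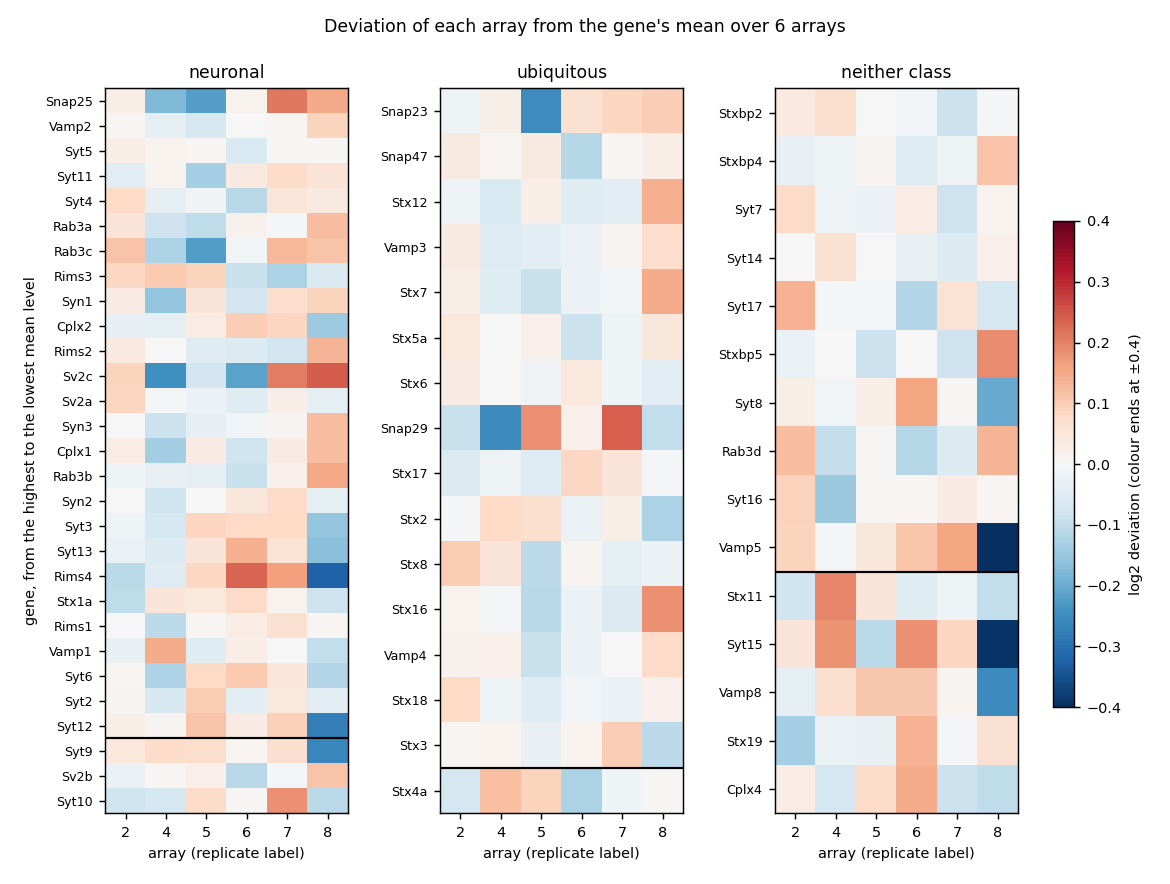
Deviation of each array (columns, by replicate label) from the gene's mean over the 6 arrays, as log2 differences in colour, for the members reported singly (rows, from the highest to the lowest mean) in the 3 classes; genes under the black line are not above background. Snap25 and Rab3c are low in replicates 4 and 5 and high in replicate 7. Sv2c is lowest in replicates 4 and 6 and highest in 7 and 8, and replicate 8 is the low array for many dim members.

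Replicate 8 stood apart for dim genes. It was the lowest array for 12 of the 21 members with the lowest means, a share of 57.1%, against 52.3% of all genes up to the same mean of 8.46, and the mean deviation was -0.12 for both. The 95th percentile of the olfactory receptor genes was lowest in this array, at 7.26, and highest in replicate 5, at 7.60. Among the 21 brightest members, replicate 8 was the highest array for 9, a share of 42.9%, against 35.1% of all genes from the same mean of 9.54. Without replicate 8 the counts above background were 28, 15 and 10 as before, and the median r was 0.20 for neuronal and 0.14 for ubiquitous pairs.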

How the data were processed

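Per the labels, the deposited values were made with Affymetrix Expression Console and RMA. The methods of the study name RMA in Aroma Affymetrix, with the mean over all exons that annotation release 33 assigns to a gene, and a screen for outlying arrays. The authors deposited linear intensity values for 19613 genes on 6 arrays, which form 1 group. The genome build was not given in the sources used here, so no gene coordinates are printed, and promoters come from RefSeq on GRCm38.p6. The table held 0 columns of other samples. Depth in counts does not apply to arrays, and the precision is limited by the number of arrays.

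The log2 of each intensity was taken without a pseudocount (Python 3.11.15, pandas 2.3.3). limma 3.58.1 in R 4.3.3 (lmFit with an intercept, eBayes) tested each gene's log2 intensity minus the background level, two-sided, with Benjamini-Hochberg adjustment over all genes at 0.05. The level, the 95th percentile of the means of 1032 olfactory receptor genes, was treated as fixed, so its own error is not in the p-values. The step was tested on simulated data. Medians of SD and of r have jackknife standard errors over the 6 arrays. Pairwise r over all genes used 2000 genes drawn at random from those above the level. Alternatives were median centring, the 99th percentile, a level for each array, no filter on low values, no test, and leaving out each array.

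The members, classes, lists and motifs were chosen with earlier results of these data known. Members are named with their means, except a few that are not reported here singly and stay in the counts and medians. Values in all arrays are given for the best-described neuronal and ubiquitous members of each family, the 5 largest and 3 smallest SDs above background, the 3 members nearest the level on each side and members with an array apart from the rest, and for the pathway lists the 3 highest and 3 lowest genes are named.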

Additional observations from a re-analysis of the deposited data

Results flagged for a closer look

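For 9 of the 62 members, the gap between the most extreme array and its nearest neighbour took more of the whole range than Dixon's 95% limit for 6 values, a share of 14.5%. Chance flags about 1 in 20 groups, or 3.1 of 62, and 6.90% of all genes passed the same limit. Replicate 8 was the array apart in 4 of the 9.

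For Syt9 the gap was 0.796 of the range, for Syt12 0.740 and for Vamp5 0.712, with replicate 8 low in each, and for Stxbp5 it was 0.684 with replicate 8 high. Without that array the SD of Syt9 went from 0.13 to 0.029, that of Syt12 from 0.14 to 0.045, that of Vamp5 from 0.20 to 0.061 and that of Stxbp5 from 0.10 to 0.043. Replicate 6 was low for Snap47 (0.804) and Syt5 (0.717), and replicate 4 was low for Rims1 (0.652) and Syt16 (0.638).

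For Snap23 the ratio was 0.673, with replicate 5 at 0.30 below the mean of the other 5 arrays, and the SD without it was 0.047. Snap25, its neuronal counterpart, was also lowest in replicate 5 but had replicate 4 close beside it.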

How the results depend on the processing

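The counts of neuronal and ubiquitous members above background stayed within 1.5 times under every alternative run. Leaving out each array gave 27 to 28 neuronal members, with Syt12 the gene lost, 15 ubiquitous members and 10 others. With the 99th percentile of the olfactory receptor genes as background, 41 of the 53 calls were kept: 21 of 28 neuronal, 14 of 15 ubiquitous and 6 of 10 others. The means of Stx1a (-0.0027), Rims1 (-0.14), Rab3d (-0.21), Syt16 (-0.35), Vamp5 (-0.36), Vamp1 (-0.37), Stx3 (-0.42), Syt6 (-0.57), Syt2 (-0.65) and Syt12 (-0.73) then fell under that level on the log2 scale, and Rims4 and Syt8 stayed over it without passing the test. This level and the level of each array were added for single members, and both for the pathway lists, after seeing the data. The distance of Syt9 from the level lay between -0.030 and 0.012 when each array was left out, above 0 without replicate 6 (0.012) or 7 (0.00040), and passed the test in none of these fits. Sv2b was called below background without replicate 8 (limma adjusted p = 0.00214). The call of Stx4a was also lost with the level of each array. The median level of neuronal members was 9.33 over those above background alone, a filter that keeps the brighter members. The median r of ubiquitous members was 0.30 after median centring, and between -0.062 (without replicate 5) and 0.14 when each array was left out. The cause was not tested. Of the 62 members, 47 had no change of call or sign over 9 alternatives.

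Background limits what can be said of dim members: a level near 7.47 does not show that a gene is silent. There is 1 group, so nothing here is a response to serum, and the labels do not say whether these 6 arrays had passed the screen for outliers that the methods name.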

Other observations

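Transporters that load transmitter into vesicles stood near background. Slc17a6 and Slc17a7, the vesicular glutamate transporters, had mean log2 intensities of 7.47 and 7.39 and could not be separated from the level, and Slc32a1, which loads GABA and glycine, stood at 7.87 and was called above it (limma adjusted p = 3.71e-05). Slc17a6 read 7.43, 7.42, 7.45, 7.31, 7.46 and 7.73 in replicates 2, 4, 5, 6, 7 and 8, with replicate 8 the highest array. The acetylcholine genes Chat and Slc5a7 stood higher, at 9.42 and 8.99, and the vesicular acetylcholine transporter was not analysed here.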
